A study of Mus musculus with 36 samples.

Results

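Open chromatin of cardiomyocyte nuclei was compared between the border zone and sham-operated ventricle 7 days after surgery. The comparison takes in every region of the 3 lists deposited for day 7, one of regions higher in the border zone, one of regions higher in sham and one of regions listed as not differing. These lists hold 34952 of the 122759 regions deposited for days 4, 7 and 14. Both libraries came from FVB/N mice carrying Myh6-MerCrMer, a tamoxifen-inducible Cre recombinase under the promoter of the cardiac myosin gene Myh6, and nTnG, a reporter that turns nuclei green after Cre has acted. The sham library came from the left ventricle of sham-operated mice. The border zone library came from surviving left ventricular muscle beside a myocardial infarction. Mice of both groups received tamoxifen at 20 mg/kg, first a week before the start and again on both following days, and a flow cytometer collected 50000 green nuclei for each library. The transgene, the reporter and tamoxifen were thus shared by both sides, and no library without them was used here. The sort keeps nuclei in which Cre acted under the Myh6 promoter, and the labels give neither the number of animals behind a library nor their age or sex. There was 1 library a side, so no difference at day 7 was tested, and every value describes these 2 libraries.

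ATAC-seq uses a transposase that cuts and tags DNA where it is not wrapped tightly on nucleosomes, so the number of tags in a region follows how open the chromatin is there. Open regions include promoters and enhancers, and their openness can change when transcription factors bind or leave. In the border zone, surviving cardiomyocytes are stretched and poorly supplied with blood, and they are known to lower genes of contraction and energy metabolism and to switch on a stress and fetal programme. Regions are given by their mm9 coordinates, counted from 1. Genes were not assigned to them, because no mm9 annotation was used here, and for the same reason the cardiomyocyte label of the nuclei was not checked against marker genes. A change of accessibility within nuclei and a change in the mix of sorted nuclei cannot be told apart.

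The listed regions carried 3858892 sham tags and 2743237 border zone tags, and covered 42.0 Mb. A region had a median of 67 sham tags, 48 border zone tags and 112 tags in all. The deposited border zone values were scaled up, by 1.35 in most regions and by 1.17 in 1336 regions with few tags, all of them differential. A further 303 border zone-higher and 203 sham-higher regions held sums of both. These factors were inferred from the values, and the sources used here do not say why there were 2. The tags given here are whole tags before scaling, and the listed fold is the ratio of the authors' scaled values. The centred fold is the ratio of whole tags after 1 factor for all regions, 1.49, which sets the median ratio of the 34952 regions to 1. It is a choice of scale: a uniform change of accessibility in all regions would not be seen with it. For a region with 112 tags and equal accessibility, counting error alone spans centred folds of 0.669 to 1.48 (exact 95% interval), and for 1000 tags it spans 0.878 to 1.14.

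At day 7, 6120 regions were listed as higher in the border zone, 17.5% of all, and 7704 as higher in sham, 22.0% of all, which makes 39.6% in either direction. The other 21128 regions were listed as non-differential. Which side held more regions depended on the scale. With the single median factor, 7342 regions (21.0%) were past the lists' fold minimum on the border zone side and 5661 (16.2%) on the sham side, so that 56.5% of differential regions were border zone-higher in place of 44.3% in the lists. With a factor from the summed tags the numbers were 6608 (18.9%) and 6827 (19.5%), of which the border zone-higher regions make 49.2%. All 6120 border zone-higher regions of the lists were also past it with the median factor, and 1222 non-differential regions joined them. Of the sham-higher regions, 73.5% were still past it.

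The border zone-higher regions held more of the largest folds. Their median listed fold was 2.24, against 2.14 for the sham-higher regions, and with the median factor and the same fold minimum on both sides the medians were 2.35 and 2.07. Over the deposited lists the centred medians were 2.51 (quartiles 2.16 and 3.22) and 1.94 (1.74 and 2.23), but there the lists' edge lies at a larger centred fold on the border zone side, so these differ in part by selection. Centred folds of at least 4 were found in 841 border zone-higher and 60 sham-higher regions, and folds of at least 8 in 151 and 1. The listed folds of at least 4 numbered 543 and 144, so the order of the sides did not depend on the centring. These steep regions were thinly covered. The 841 border zone-higher regions had a median of 68 tags, 16 of them from sham, and the 60 sham-higher regions had a median of 71, 9 of them from the border zone. The largest ratio, at 38878751 to 38879750 of chromosome 15, rested on 1 sham tag against 60 border zone tags, a centred fold of 89.2 with a counting interval of 15.4 to 3581. The largest on the sham side, at 5440251 to 5441250 of chromosome 6, rested on 53 sham tags against 3, a fold of 11.9 (3.85 to 59.5).

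**Figure D1:**
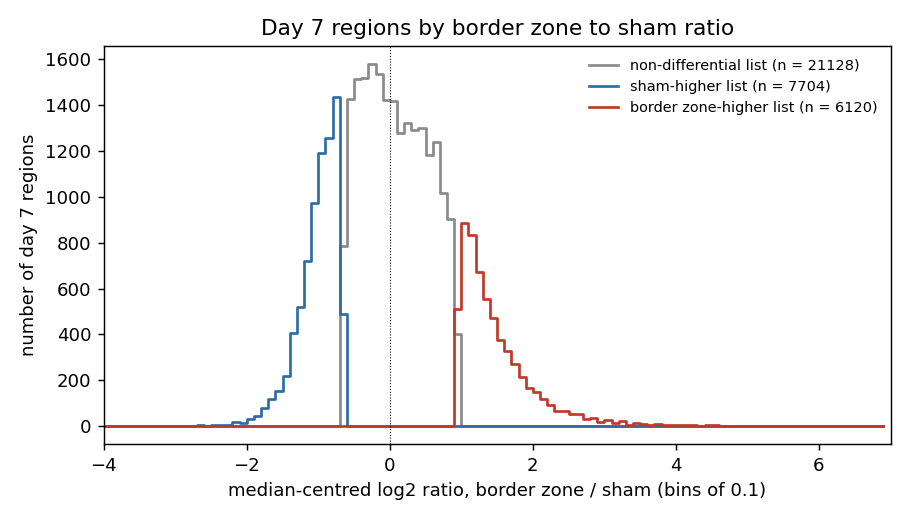
Number of day 7 regions (vertical axis) in bins of 0.1 of the centred log2 ratio of border zone to sham (horizontal axis), with 1 line for each deposited list. The tail of the 6120 border zone-higher regions reaches further from 0 than that of the 7704 sham-higher regions.

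The lists are divided by a fold minimum on the authors' scale, and the larger listed value was at least 50 in every region. The smallest listed fold among border zone-higher regions was 1.751, and the largest among non-differential regions was 1.749 on either side. On the centred scale the edges are unequal. A border zone-higher region just inside, at 5133751 to 5134750 of chromosome 18, had 70 sham and 91 border zone tags, a centred fold of 1.93. A sham-higher region just inside, at 182155751 to 182156750 of chromosome 1, had 66 and 28 tags, a centred fold of 1.59. Just outside, 57 sham and 74 border zone tags at 128240251 to 128240750 of chromosome 10 gave 1.93, and 172 and 73 tags at 83620751 to 83621250 of chromosome 17 gave 1.58. Regions just inside and just outside thus had nearly the same centred folds.

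The share of differential regions was smaller where there were more tags, more steeply so for the border zone. Among the 14207 regions with under 100 tags, 25.1% (24.3 to 25.8%) were border zone-higher and 23.4% (22.8 to 24.2%) sham-higher. From 200 to under 500 tags the shares were 10.4% (9.68 to 11.1%) and 21.1% (20.1 to 22.1%). Among the 462 regions with 1000 or more tags they were 5.63% (3.71 to 8.14%) and 10.8% (8.14 to 14.0%). The interquartile range of the centred log2 ratios was 1.58 in the regions with the fewest tags and 0.48 in those with the most. A region could enter the lists with few tags in total only when they were uneven, since the minimum applied to the larger value. That minimum was on listed values, in which border zone tags were scaled up, while the classes count whole tags. With the larger scaling factor, border zone-higher regions had as few as 39 whole border zone tags. Sham-higher regions with that factor had at least 50 sham tags. The class with the fewest tags was thus easier to enter on the border zone side. The part of this unequal minimum in the steeper border zone fall was not tested. On the centred scale the strongest regions leaned slightly to the border zone, with a median log2 ratio of 0.20 among those with 1000 or more tags. This lean depends on the scale, since the factor of 1.41 from summed tags or the lists' 1.35 would make it smaller. Few of these regions reached the fold required, and in the lists 26 were border zone-higher and 50 sham-higher. Whether tag number sets these shares was not tested.

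Width gave another pattern. Regions of 1 kb, 64.4% of all, were border zone-higher in 20.6% and sham-higher in 25.4%. Between 2.5 and 4.5 kb, 10.6% (8.23 to 13.3%) were border zone-higher and 25% (21.6 to 28.7%) sham-higher, so that the sham side outnumbered the border zone most clearly there. From 5 to 9.5 kb the shares were 20.7% (13.6 to 29.5%) and 33.3% (24.7 to 42.9%). Wider regions also hold more tags, with a median of 95 at 1 kb and 1496 from 5 to 9.5 kb, so the lower shares of regions with many tags did not extend to the widest regions.

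**Figure D2:**
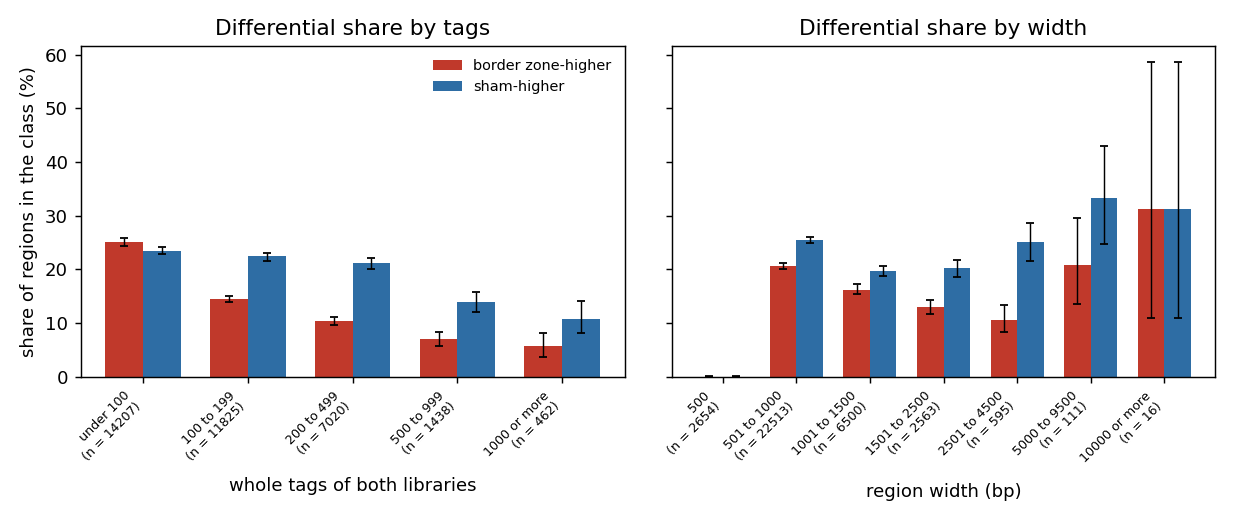
Share of day 7 regions (percent, vertical axis) listed as border zone-higher or sham-higher, by whole tags of both libraries (left) and by width in bp (right). Error bars are exact 95% binomial intervals that take regions as independent, and the border zone share goes from 25.1% under 100 tags to 5.63% at 1000 or more.

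The narrowest regions were mostly flanks of others. All 2654 regions of 500 bp were in the non-differential list, and 2476 of them (93.3%) directly touched a differential region. The 1537 that touched only sham-higher regions had a median centred log2 ratio of -0.44, and the 931 that touched only border zone-higher regions had 0.68. The 178 that touched no differential region had 0.50, so a lean to the border zone was not limited to the edges of border zone-higher regions. Region starts lay on a grid of 500 bp and differential regions were at least 1 kb wide, so one open site can be listed as a differential core and a non-differential edge. The count of 21128 non-differential regions includes these edges.

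The border zone-higher regions with the largest centred folds among regions of at least 200 tags were 8, from a pool of 831 such regions on placed chromosomes. The strongest lay at 94813251 to 94817250 of chromosome 11, with 57 sham and 294 border zone tags over 4 kb, a centred fold of 7.67 (5.76 to 10.4). At 24411251 to 24412750 of chromosome 8, 44 sham and 201 border zone tags gave 6.79 (4.88 to 9.64). A region of chromosome 4, 136204751 to 136206750, followed with 39 and 177 tags, a fold of 6.75 (4.75 to 9.81). Counting intervals of all 8 overlapped, so their order is not fixed. At 106546251 to 106547750 of chromosome 8 there were 68 sham and 294 border zone tags, a fold of 6.43 (4.92 to 8.50). The remaining 4 lay on chromosome 5 (52741751 to 52743750, 42 and 175 tags), chromosome 7 (25171751 to 25173250, 56 and 233 tags), chromosome 16 (56870251 to 56872250, 47 and 184 tags) and chromosome 12 (87300251 to 87302250, 68 and 259 tags), with centred folds of 5.66 to 6.19.

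These regions differed in how they stood on the other days. They were picked for their day 7 folds, so smaller values on another day follow in part from the choice. The chromosome 11 and chromosome 4 regions were in no list of day 14 or day 4, so no value is at hand for those days. The other 6 overlapped border zone-higher regions of day 14, with centred folds of 2.45 to 4.46. Only that of chromosome 7 was also border zone-higher on day 4, at 5.37-fold (3.65 to 8.11) from 32 sham and 161 border zone tags. The region at 106546251 of chromosome 8 was non-differential on day 4 with 21 and 35 tags, a fold of 1.78 (1.01 to 3.21), and the remaining 4 were not listed on day 4.

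On the sham side, the same rule drew from 1728 regions and gave smaller folds. At 53917251 to 53918750 of chromosome 19, 286 sham tags stood against 31 border zone tags, a centred fold of 6.21 (4.28 to 9.31). At 63286751 to 63288250 of chromosome 3, 183 against 24 tags gave 5.13 (3.34 to 8.21), and at 96999751 to 97001250 of chromosome 15, 252 against 36 gave 4.71 (3.31 to 6.88). A further region of chromosome 19 close to the first, 53887251 to 53890250, had 549 sham and 92 border zone tags, a fold of 4.01 (3.21 to 5.06). The other 4 had folds of 3.66 to 4.09 and lay on chromosome 5 (67247751 to 67249250 with 219 and 36 tags, 72802751 to 72804250 with 231 and 41), chromosome 4 (38281251 to 38283250, 206 and 34) and chromosome 10 (18166251 to 18168250, 256 and 47).

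The same holds for the choice of these regions. The first chromosome 19 region was not listed on day 14, and on day 4 it was non-differential, with 60 sham and 74 border zone tags. The other 7 had centred folds of 1.24 to 2.19 in sham on day 14, and only those of chromosomes 4 and 10 overlapped a sham-higher region of that day. On day 4, 1 of the 8 overlapped a sham-higher region, that at 67247751 of chromosome 5, with 251 and 118 tags, a fold of 1.99 (1.60 to 2.50).

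Differences were spread over every autosome, with small shifts between chromosomes. The median centred log2 ratio ranged from -0.18 on chromosome 14 to 0.10 on chromosome 7. Another scale would shift all of these medians together, so their signs are relative to the median region. The border zone-higher share ranged from 15.3% to 19.2% and the sham-higher share from 18.2% to 26.3% over the 19 autosomes. Chromosomes 18 and 19, with 26.0% and 26.3%, held the highest sham-higher shares, and chromosomes 7 and 11, with 18.2% and 18.8%, the lowest. The medians of the 19 autosomes at day 7 followed those at day 14 (Pearson's r 0.90, Spearman's rho 0.90) and not those at day 4 (0.19 and 0.08). The autosomes share their 2 libraries within a day, and each day has its own sham library. The number of regions per Mb, 11.1 to 19.1 on autosomes, had only a weak relation to the median (r 0.23, n = 19). Chromosome X had 2.03 regions per Mb, and its 330 regions were border zone-higher in 17.6% and sham-higher in 23.9%.

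**Figure D3:**
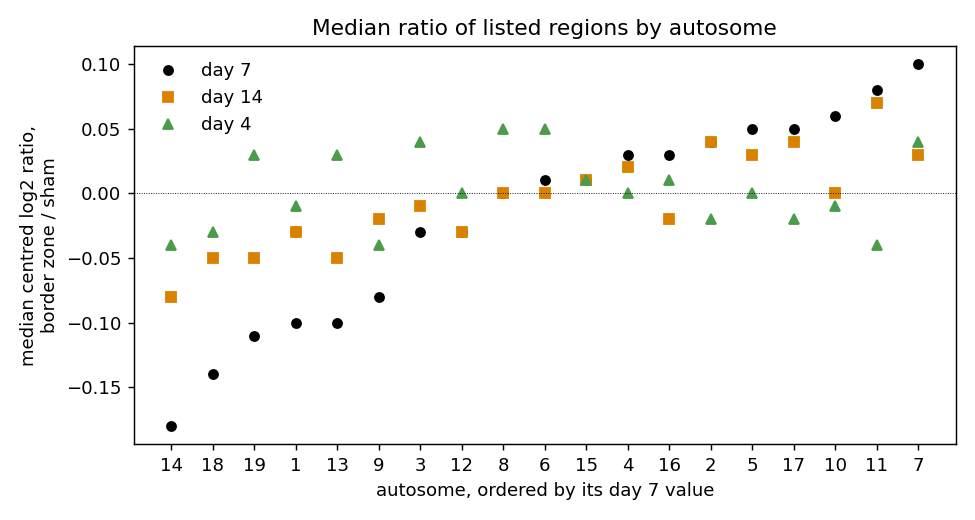
Median centred log2 ratio of border zone to sham (vertical axis) over the listed regions of each autosome, ordered by the day 7 value, with 1 point each for days 7, 14 and 4. Day 7 goes from -0.18 on chromosome 14 to 0.10 on chromosome 7, a wider range than -0.08 to 0.07 on day 14 and -0.04 to 0.05 on day 4.

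Position along a chromosome went with a small difference. When the span of listed regions on each of chromosomes 1 to 19 was divided into 5 equal parts, the second part from its start had the lowest border zone-higher share, 14.4% (13.5 to 15.3%) of 6069 regions, and the highest sham-higher share, 25.3% (24.2 to 26.4%). The last part, which held 8985 regions, had shares of 18.6% and 20.0%. Region tags did not follow this, with medians of 111 to 113 in all 5 parts.

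Neighbouring regions tended to differ alike, the more so the closer they lay. For adjacent regions separated by 1 bp to 2 kb, the centred ratios had a Spearman correlation of 0.56 over 2840 pairs. It was 0.39 for gaps of 2 to 10 kb, 0.22 for 10 to 50 kb, 0.12 for 50 to 200 kb and 0.06 beyond 200 kb. Among pairs in which both regions were differential, both had the same direction in 94.6% of 466 pairs under 2 kb apart, 84.1% of 1190 at 2 to 10 kb and 70.8% of 1506 at 10 to 50 kb. Beyond 200 kb the share was 55.0% of 556 pairs. Of the same-direction pairs under 2 kb apart, 295 were sham-higher and 146 border zone-higher by the deposited lists. Touching regions were an exception of the lists themselves, since all 18 touching pairs with both members differential had opposite directions. A region of one direction had another of its direction within 50 kb in 52.8% of border zone-higher and 61.2% of sham-higher regions, and any listed region had a neighbour at that distance in 88.4%. Which side was more often grouped depended on the scale, since with the median factor the shares were 58.5% and 54.6%. Each time the side with more regions had the larger share, sham-higher with 7704 in the lists and border zone-higher with 7342 by the median factor.

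On a grid of 100 kb, 11553 windows held a listed region. Of these, 3015 held border zone-higher and no sham-higher regions, 3550 held sham-higher and no border zone-higher ones, and 1182 held both. At least 5 differential regions of a single direction and none of the other were found in 50 border zone-higher and 117 sham-higher windows. These counts rest on the deposited lists, of which the sham-higher one is longer, 7704 against 6120 regions. No window held 5 or more of each.

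The 6 border zone-higher windows with the most regions formed 2 blocks. On chromosome 8, the 3 adjoining windows from 19700001 to 20000000 held 17, 10 and 17 border zone-higher and no sham-higher regions at day 7. Their summed tags, non-differential regions included, were 2816 in sham and 4127 in the border zone, 2422 and 3286, and 6670 and 10156, which are centred folds of 2.18 (2.08 to 2.29), 2.02 (1.91 to 2.13) and 2.26 (2.19 to 2.33). On chromosome 5, the windows from 14900001 to 15200000 held 13, 11 and 12 border zone-higher and no sham-higher regions, with folds of 2.09 to 2.22. In all 6 windows every region leaned to the border zone, 139 of 139 at day 7. At day 14, 77 of 79 listed regions did, and at day 4, 47 of 49. The windows were picked for their day 7 counts. Their day 7 values, and smaller ones on another day, thus follow in part from the choice. The blocks differed between days, but sums run over the regions listed on each day, so the days do not compare the same sequence. On chromosome 5 the window folds at day 14, 2.21 to 2.33, were as large as at day 7, while on chromosome 8 they were 1.28 to 1.74. The chromosome 8 windows had 43.5, 33.5 and 79 kb listed at day 7 and 10, 11.5 and 31.5 kb at day 14. Those of chromosome 5 had 57.5, 32 and 48 kb at day 7, 30.5, 25 and 31 kb at day 14, and 2.5, 2 and 8.5 kb at day 4. On day 4 the chromosome 8 windows had folds of 1.19 to 1.24, and the chromosome 5 windows had 1.80 to 2.01 from at most 386 border zone tags a window. Whether these blocks hold repeated sequence was not tested.

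Sham-higher windows were led by chromosome 13. From 12000001 to 12100000, 19 of 25 regions were sham-higher and 6 non-differential, with 3374 sham and 1027 border zone tags, a centred fold of 2.21 (2.06 to 2.37). From 12100001 to 12200000, 23 of 31 were sham-higher, with 3522 and 1132 tags, a fold of 2.09 (1.96 to 2.24). All 56 regions of the pair had a centred ratio below 1. At day 14 all 63 listed regions of the pair were again below 1, with 19 and 2 sham-higher regions and folds of 1.70 and 1.35. At day 4 the direction was the other, with 31 of 40 regions above 1 and summed tags 1.11-fold (1.05 to 1.18) and 1.15-fold (1.08 to 1.23) higher in the border zone. Before any scaling, the day 4 tags were 2378 in sham and 2478 in the border zone, and 1935 and 2091.

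The other 4 sham-higher windows lay on chromosomes 19, 14, 2 and 9. The window from 53800001 of chromosome 19 held 19 sham-higher regions of 34, with 4967 sham and 1868 border zone tags, a fold of 1.79 (1.70 to 1.89). At day 14 none of its 21 regions was sham-higher, with a fold of 1.17 (1.14 to 1.20). The windows from 35300001 of chromosome 14, 76700001 of chromosome 2 and 48500001 of chromosome 9 held 14 sham-higher regions each. Their folds in summed tags were 1.56 (1.51 to 1.61), 1.88 (1.80 to 1.95) and 1.83 (1.72 to 1.95) at day 7, and 1.52, 1.28 and 1.14 at day 14. Sums run over the regions listed on each day, and in the chromosome 14 window the median over regions was nearer 0 at day 14, with a centred log2 ratio of -0.60 over 33 regions at day 7 and -0.29 over 12 at day 14. The summed tags covered 52.5 kb and 47 kb of it. Over all 6 sham-higher windows, 159 of 161 regions were below 1 at day 7, 123 of 140 at day 14 and 54 of 114 at day 4. These windows too were picked for their day 7 counts, so smaller values on another day follow in part from the choice.

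**Figure D4:**
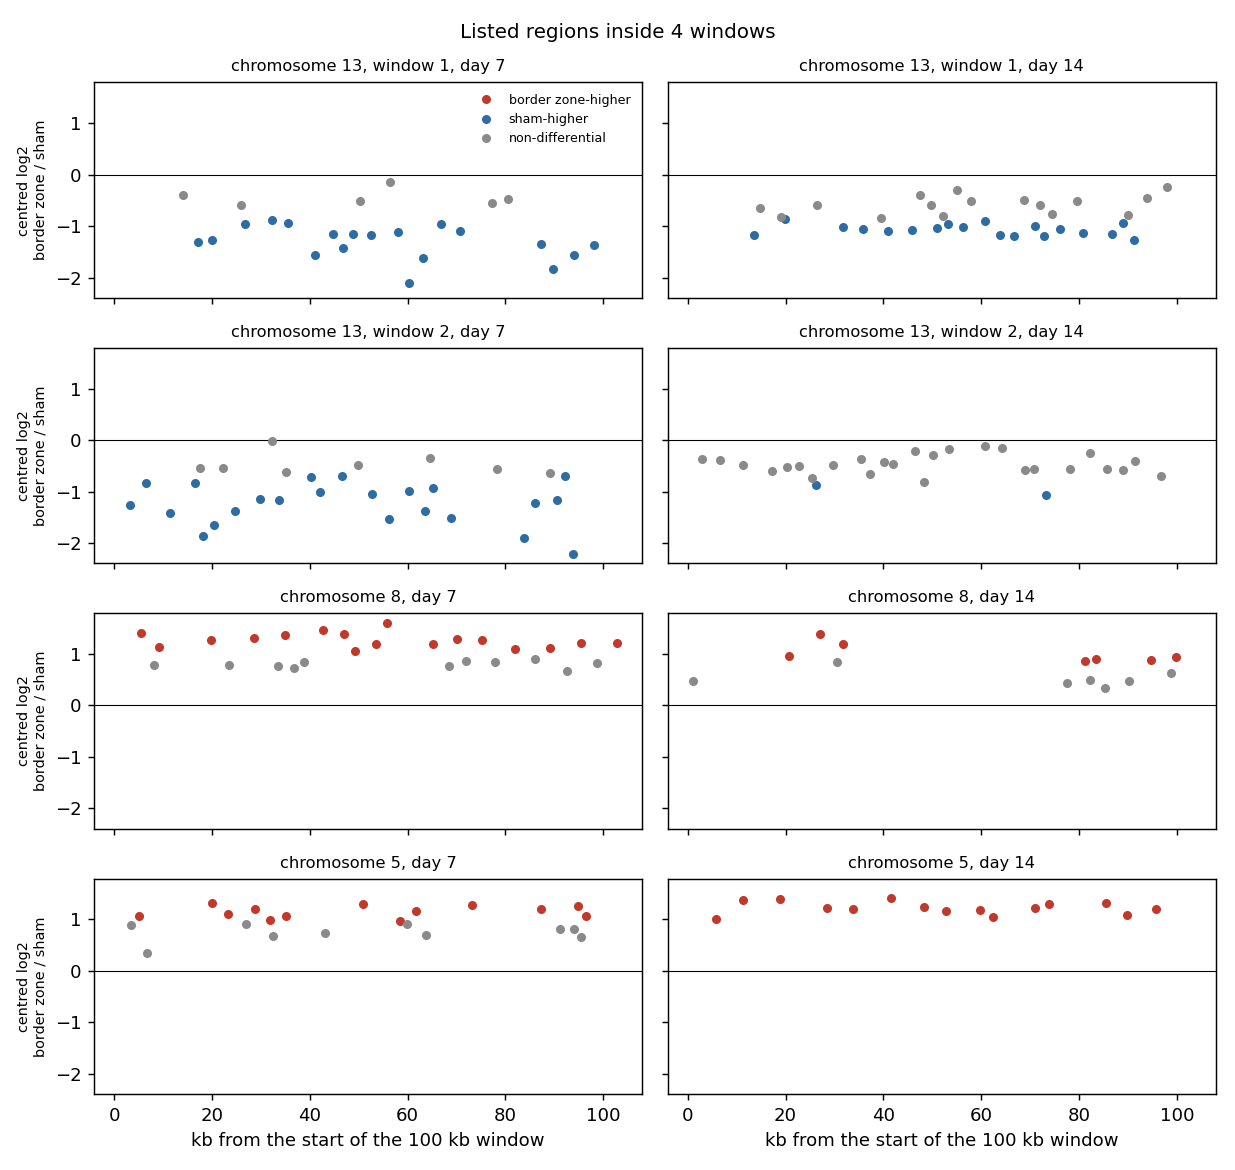
Centred log2 ratio of border zone to sham (vertical axis) of every listed region in 4 windows of 100 kb, by distance in kb from the window's start (horizontal axis), on day 7 (left) and day 14 (right). The rows are the chromosome 13 windows from 12000001 and 12100001, the chromosome 8 window from 19900001 and the chromosome 5 window from 14900001. Colours give the list. No region of these 4 windows crosses 0 on either day, while some regions of other named windows do.

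Over whole megabases, in a count added after the values were seen, 63 of the 106 regions at 12000001 to 13000000 of chromosome 13 were sham-higher and 5 border zone-higher, with 13858 sham and 5588 border zone tags, a centred fold of 1.67 (1.62 to 1.72). At 76000001 to 77000000 of chromosome 2, 44 of 64 regions were sham-higher and none was border zone-higher, with a fold of 1.90 (1.84 to 1.96). At 173000001 to 174000000 of chromosome 2, 22 of 37 regions were border zone-higher and 1 was sham-higher, with 2683 and 3581 tags, a fold of 1.98 (1.89 to 2.09). That stretch of chromosome 2 was 1.88-fold (1.83 to 1.93) higher in the border zone at day 14 and level at day 4, 1.01-fold (0.961 to 1.06). Opposite stretches thus lay on the same chromosome.

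Uninterrupted runs of listed regions showed the same grouping. The longest border zone-higher run was 9 regions over 86 kb of chromosome 11, 86381751 to 86467750, with 285 sham and 725 border zone tags, a centred fold of 3.78 (3.29 to 4.35) and single regions from 2.0 to 7.43. It was 2.23-fold (2.12 to 2.35) higher in the border zone at day 14 and 3.31-fold (2.38 to 4.66) at day 4, the last from 49 and 152 tags. The longest sham-higher runs had 8 regions, and 3 tied. They spanned 31 kb of chromosome 13 from 12086251 (1291 and 343 tags, fold 2.53, 2.25 to 2.86), 48 kb of chromosome 2 from 76692751 (4740 and 1566 tags, fold 2.04, 1.92 to 2.16) and 291.5 kb of chromosome 17 from 7186751 (735 and 216 tags, fold 2.29, 1.96 to 2.68). At day 14 these stretches were 1.37-fold to 1.46-fold higher in sham, and at day 4 the chromosome 13 stretch was not (646 border zone against 629 sham tags). Runs were picked for their day 7 direction, so smaller values on another day follow in part from the choice. Most runs were single regions, 3645 of 4645 border zone-higher and 4240 of 5635 sham-higher ones. All runs together held 6055 border zone-higher and 7698 sham-higher regions. A run ended at any region of another list, non-differential edges included. A single region could therefore still have a close neighbour of its direction.

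Regions of 5 kb or more numbered 127, of which 28 were border zone-higher, 42 sham-higher and 57 non-differential. The 42 sham-higher ones lay on 17 chromosomes, with at most 6 on any. Of the 28 border zone-higher ones, 18 lay on chromosomes 5 and 8, and 16 of these lay in the 1 Mb bins that hold the chromosome 5 and chromosome 8 windows above. A further 4 were on unplaced contigs. More of the wide border zone-higher regions thus lay in these 1 Mb bins than outside them. The bins reach beyond the blocks described above, and they hold windows picked for their number of border zone-higher regions. The wide sham-higher regions were counted by chromosome only. Whether they gather in the 1 Mb bins of the sham-higher windows was not tested, so the sides cannot be compared at that scale.

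The widest region of all was sham-higher. It spanned 41 kb of chromosome 5, 122909751 to 122950750, with 7673 sham and about 2253 border zone tags, a centred fold of 2.29 (2.19 to 2.40). The next were a pair on chromosome 2, 76718251 to 76740750 (3907 and about 1285 tags, fold 2.05, 1.92 to 2.18) and 76745251 to 76758750 (2018 and about 709 tags, fold 1.91, 1.76 to 2.09). At 43185251 to 43196250 of chromosome 1 there were 2161 and 626 tags, a fold of 2.32 (2.12 to 2.54), in a stretch with no listed region on day 14 or day 4. The region at 76843751 to 76854250 of chromosome 15 held 4096 and 1318 tags, a fold of 2.09 (1.96 to 2.23), and that at 104553751 to 104563250 of chromosome 12 held 1697 and 486, a fold of 2.35 (2.12 to 2.60). All of these but the chromosome 1 region were also higher in sham in summed tags at day 14 (1.14-fold to 1.58-fold) and day 4 (1.09-fold to 1.33-fold), each time by less than at day 7. They were listed for their day 7 folds, so the smaller values follow in part from the choice. Over the 42 wide sham-higher regions, 22 overlapped a sham-higher region of day 14, 52.4%, against 16.8% of the 7662 narrower ones and 5.15% of all day 7 regions. Of the 28 wide border zone-higher regions 22 overlapped a border zone-higher region of day 14, 78.6%, against 36% of the 6092 narrower ones and 10.7% of all. A wide region can overlap more regions, which raises these shares.

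The widest border zone-higher region was thinly covered. It spanned 16 kb of chromosome Y, 1255751 to 1271750, and held only 59 sham and 77 border zone tags, which is 8.50 tags per kb against a median of 87.4 in its list. Others were 13.5 kb of an unplaced contig of chromosome 8 with 1858 and 2987 tags, a fold of 2.39 (2.25 to 2.53), and 12 kb and 11 kb of chromosome 5 within the block from 14900001, with folds of about 2.47 (2.25 to 2.71) and 2.62 (2.38 to 2.89). Outside both blocks, 56198751 to 56209250 of chromosome 8 held 1241 and 2153 tags over 10.5 kb, a fold of 2.58 (2.40 to 2.77). At day 14 it was 3.74-fold (3.52 to 3.97) higher in the border zone, one of the few places named here with a larger fold than at day 7, and at day 4 it was not (1199 border zone against 1364 sham tags). Of the 6 widest non-differential regions, 3 were on chromosome Y with 7.25 to 8.08 tags per kb. The others lay on chromosomes 13 (63340251 to 63354250, 2586 sham and 1741 border zone tags), 19 (5828251 to 5841750, 3538 and 1973) and 6 (47689251 to 47700750, 3493 and 3318). Their centred folds were 1.0 (0.941 to 1.06), 1.21 in sham (1.14 to 1.28) and 1.41 in the border zone (1.35 to 1.48).

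Unplaced contigs stood apart from the chromosomes. Of their 133 regions, 65 were border zone-higher, 48.9%, and 6 were sham-higher, 4.51%, with a median centred log2 ratio of 0.93. The unplaced sequence of chromosome 8 alone held 53 regions, 32 of them border zone-higher, with 6437 sham and 9645 border zone tags, a centred fold of 2.23. The contigs of chromosome 9 had nearly level tags, 9655 and 6990, a fold of 1.08. Leaving out everything but chromosomes 1 to 19 gave 5995 border zone-higher and 7619 sham-higher regions. The sources used here do not say how reads that fit several places were treated.

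Comparison with the other days set day 7 against separate libraries. Day 14 nuclei came from the same kind of sort, and day 4 nuclei were enriched instead with an antibody to PCM1, a protein around cardiomyocyte nuclei, so day and method changed together there. Differential regions made up 20.2% of the day 14 lists (13.4% border zone-higher, 6.75% sham-higher) and 19.6% of the day 4 lists (12.2% and 7.37%). Of the day 7 border zone-higher regions, 36.2% overlapped a region listed as border zone-higher on day 14, against 10.7% of all day 7 regions, and 33.4% were not listed at all. Of the sham-higher regions, 17.0% overlapped a sham-higher region of day 14, against 5.15% of all day 7 regions, and 73.3% met only non-differential regions. Of all 34952 day 7 regions, 29628 were listed on day 14. Of the non-differential ones, 12.2% were not listed there and 78.4% met only non-differential regions. A day 7 border zone-higher region was therefore more often missing from day 14. Most sham-higher regions were still listed but below the fold required, which was not particular to them, since non-differential regions had a larger such share. On day 4, 9.89% and 5.53% overlapped a region of their own direction, against 4.67% and 3.42% of all day 7 regions. There, 68.1% of the border zone-higher regions were not listed, against 9.05% of the sham-higher and 27.1% of the non-differential ones. Among those listed on day 4 the shares were 31.0% of 1951 and 6.08% of 7007, against 6.70% and 4.91% of all listed day 7 regions. Read from the other side, 40.7% of the border zone-higher and 48.2% of the sham-higher regions of day 14 overlapped a day 7 region of the same direction, and 10.5% and 12.6% of those of day 4 did.

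On day 14, but not on day 4, standing in a group went with opposite patterns on the 2 sides. Border zone-higher regions with another within 50 kb were border zone-higher again on day 14 in 40.2% (38.5 to 41.9%) of 3233, and those without in 31.8% (30.1 to 33.5%) of 2887. Sham-higher regions with such a neighbour were sham-higher again in 14.8% (13.8 to 15.9%) of 4713, and those without in 20.4% (19 to 21.9%) of 2991. On day 4 the shares were 10% (9.01 to 11.1%) against 9.73% (8.68 to 10.9%) and 5.39% (4.76 to 6.07%) against 5.75% (4.94 to 6.65%). Neighbours share their libraries and tended to differ alike, so these intervals, which take regions as independent, can be too narrow. The grouped regions had more tags, a median of 117 against 103 on the sham side and 93 against 87 on the border zone side. The part of tag number in this was not tested. The regions scaled by the smaller factor, with a median of 17 sham and 45 border zone tags on the border zone side, were border zone-higher again on day 14 in 20.0%, against 37.8% of those scaled by the larger one. Only 28.3% of the former were listed on day 14, against 73.0% of the latter, and among those listed the order was the other, 70.8% against 51.9%. Where a region was differential on both days, its direction was the same for 98.6% of 3577 on day 14 and 83.5% of 1234 on day 4.

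The ratios themselves were graded over both days. Regions at least 4-fold higher in the border zone at day 7 had a median centred log2 ratio of 1.51 at day 14, where 354 of 841 were listed, and those over 4-fold higher in sham had -0.74, where 52 of 60 were listed. The 8 classes between followed in order. At day 4 the medians ran from -0.23 to 1.19 over the same classes and stayed between -0.23 and -0.05 for every class up to a day 7 log2 ratio of 0.5, so most of the range at day 4 came from the border zone side. The medians for the steepest border zone class rest on the part that was listed, 42.1% on day 14 and 12.0% on day 4.

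**Figure D5:**
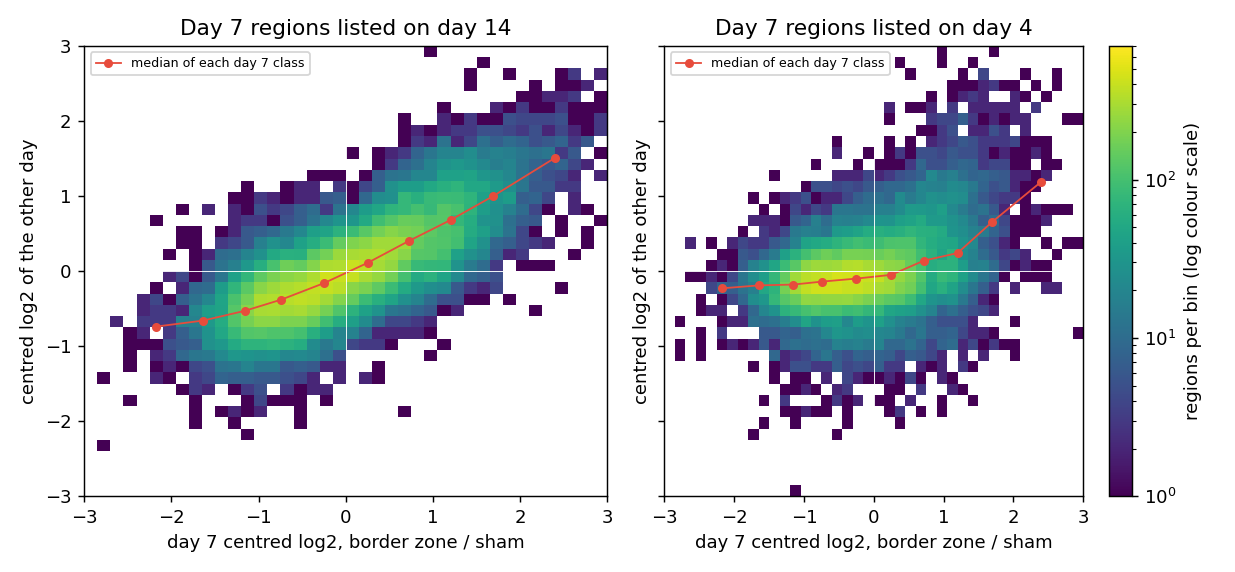
Number of day 7 regions per bin (colour, log scale) by centred log2 ratio at day 7 (horizontal axis) and at day 14 (left) or day 4 (right, vertical axis), with the median of each day 7 class as red points. At day 14 the class medians go from -0.74 to 1.51, and at day 4 they stay near 0 until the border zone side.

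Ratios were also spread more widely at day 7 than at overlapping places on the other days. In the 8557 day 7 regions with at least 200 tags on both days, the interquartile range of the centred log2 ratios was 0.86 at day 7 and 0.60 at day 14. In the 6475 with at least 200 tags on days 7 and 4, it was 0.88 and 0.29. With at least 500 tags on both days, where counting error is smaller, the ranges were 0.59 and 0.41 for day 14 (1806 regions) and 0.59 and 0.22 for day 4 (1364 regions). At 500 tags or more, 18.6% of the regions were past the fold minimum on the centred scale at day 7, and for 6.42% of them the summed tags of the overlapping day 14 regions were. The units were day 7 regions, which were divided by their day 7 direction, and this could widen the day 7 values. With the other day's regions as units, chosen after the data were seen, the ranges at 500 tags or more were 0.81 at day 7 and 0.47 at day 14 (2343 regions), and 0.77 at day 7 and 0.22 at day 4 (1626 regions). Tags were more numerous on the other days in these regions, with medians of 715 at day 7 against 2215 at day 14, and 769 against 1036 at day 4. Without replicates, the difference in spread between days cannot be told apart from a difference between libraries.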

How the data were processed

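ATAC-seq regions of 1 sham and 1 border zone library at day 7 were analysed, with those of days 14 and 4 for comparison. The 30 RNA-seq samples were left out. Per the submitters' processing notes, day 7 and day 14 reads were aligned to mm9 with BWA, those of day 4 with Bowtie2, and bedtools was used. The sources used here give no versions, no region caller and no word on duplicates or the transposase shift. Per the file headers, each deposited list gives sham tags, which are counts, and border zone tags. The latter are a signal scaled by the authors, except the day 4 non-differential list, which holds deposited counts. Whole tags of day 7 were recovered from the factors 1.35 and 1.17 or their sums within 0.0006%. In 16 regions of several kb more than 1 sum was possible, and their tags are approximate. The factors were 1.37 and 1.18 on day 14, and 1.03, 1.10 and 1 in the day 4 differential lists. Tags are likewise approximate in 359 non-differential, 30 border zone-higher and 5 sham-higher regions of day 14. On day 4 they are in 22 border zone-higher and 1 sham-higher regions with several sums. A further 23 border zone-higher and 7 sham-higher regions of day 4 fitted no sum and were rounded.

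Centred ratios multiply whole border zone over sham tags by 1.49 at day 7, 1.34 at day 14 and 1.07 at day 4. Fold intervals are exact 95% Clopper-Pearson intervals of the tags and cover counting error only. Tags lack molecular identifiers and may be copies of one molecule. Share intervals are of the same kind but over regions. They take regions as independent, although neighbouring regions tended to differ alike, so they can be too narrow. Neither kind covers the spread between libraries. The recovery and centring were tested on simulated data. Regions of other days were matched by an overlap of at least 1 bp and their tags summed. Library depth is unknown here; the sums of listed tags are part of each library. Named were the 8 regions per direction with the largest centred fold and at least 200 tags, 6 windows of 100 kb and the longest runs per direction, the 6 widest regions per list and regions at the edge of the lists' fold minimum. These members and rules were chosen with earlier results of these data known. Samples were assigned through column names and labels. Alternatives were another factor, fold, tag minimum, width, neighbour distance and overlap. Python 3.11.15, numpy 2.4.6, pandas 2.3.3, scipy 1.17.1 and matplotlib 3.10.9 were used.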

Additional observations from a re-analysis of the deposited data

Results flagged for a closer look

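Some day 7 regions had the opposite direction on another day. None of these differences between days was tested. Between days 7 and 14 this was rare. Of the 4078 border zone-higher regions of day 7 listed on day 14, 2 met a sham-higher region there, 0.0490% against 6.08% of all listed day 7 regions. Of the 7008 sham-higher ones, 49 met a border zone-higher region, 0.699% against 12.7%. One of the latter was at 7720751 to 7722750 of chromosome 14, with 564 sham and 165 border zone tags at day 7, 2.30-fold higher in sham (1.93 to 2.75), and 137 and 180 tags at day 14, 1.76-fold higher in the border zone (1.40 to 2.21). Between days 7 and 4, 77 of the 1951 listed border zone-higher regions of day 7 met a sham-higher region. That is 3.95%, near the 4.91% of all listed day 7 regions. Of the 7007 sham-higher ones, 126 met a border zone-higher region, 1.80% against 6.70%. A region of chromosome 1, 194648251 to 194650250, was 3.09-fold higher in the border zone at day 7 (217 and 451 tags, 2.62 to 3.65) and 2.34-fold at day 14 (2.12 to 2.59), while sham was 2.23-fold higher at day 4 (38 and 16 tags, 1.21 to 4.28). Both places were chosen after their values were seen.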

How the results depend on the processing

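The border zone share of differential day 7 regions, 44.3% in the lists, was 56.5% with 1 median factor, 49.2% with a factor from summed tags, 45.9% at a fold of at least 2 and 40.4% where the larger value was at least 100. A fold of at least 2 left 5064 sham-higher regions, and a larger value of at least 100 left 2046 border zone-higher and 3019 sham-higher regions. The border zone-higher share of wide regions was 12.6% from 3 kb and 31.2% from 10 kb. Same-direction neighbours within 20 kb, within 200 kb and with the median factor were found for 35.2%, 79.1% and 58.5% of border zone-higher and 44.9%, 84.8% and 54.6% of sham-higher regions. By sign of the centred ratio alone, 92.0% of the 11086 differential day 7 regions listed on day 14 and 73.5% of the 8958 listed on day 4 had the same direction there, in place of 98.6% and 83.5% of those differential on both days. The other 18 planned values moved by less than their interval or by under 1.5 times. Thinner or fewer regions follow from the stricter fold, tag and width settings by construction; otherwise the cause was not tested. No paired analysis was possible because there was 1 library a side, and no replicate could be left out.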
